A study of Mus musculus with 4 samples.

Results

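The Polycomb and associated repressor genes described here are 38 of the 52636 genes with a row in the count files, and they were picked by gene symbol for what their products are known to do, with no threshold on a measured value. The choice was not blind to these data, since earlier results of them were known, so the counts of members below are a description. The study that produced the data had already reported *Phf19*, *H2afy* and *Bahcc1* as decreased in the *Eya1* mutant. RNA of mouse embryonic kidney cells was counted gene by gene in 4 libraries, control 1 and 2 and *Eya1*cKO 1 and 2, and wherever 4 values of a gene are listed they stand in this order. Control embryos carried Eya1CreER, a tamoxifen-activated Cre active in cells that express *Eya1*, and a tdTomato reporter that Cre switches on. *Eya1*cKO embryos carried these and Eya1 fl/fl, so that tamoxifen also removed *Eya1*, a phosphatase and transcription coactivator that nephron progenitors need. Both genotypes were of mixed C57BL/6J and 129/Sv background, both received tamoxifen, and tdTomato+ cells were sorted by FACS at about E12.5 to E12.75, 48 h after the first dose. Each library came from 5000 sorted cells. Suspensions of several kidneys were combined before sorting and the libraries of a genotype were separate portions of cells sorted at the same time, so a *P* value measures the spread between such portions, which may be partly technical.

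Polycomb proteins keep genes silent by marking and compacting chromatin. PRC2 trimethylates lysine 27 of histone H3 (the H3K27me3 mark), PRC1 ubiquitinates histone H2A and compacts nucleosomes, and PR-DUB takes the ubiquitin off again. In the developing kidney, as in other embryonic tissues, these complexes hold the genes of other lineages silent while progenitors divide and then differentiate. The members were ordered by role into the PRC2 core (6 genes), PRC2 accessory proteins (5), the PRC1 catalytic and PCGF proteins (8), canonical PRC1 (8), variant PRC1 (4), PR-DUB (4) and a group of 3 made of the macroH2A histone variants and the H3K27me3 reader *Bahcc1*.

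Gene counts per library ranged from 17457452 to 37999342, and the *Eya1*cKO libraries were the shallower ones. Levels are given in CPM, counts scaled to library size with edgeR's TMM factors, as mean ± SD (n = 2 libraries per genotype), and fold changes are *Eya1*cKO over control. In CPM, 3 counts came to 0.0858 and 0.08 in the controls and to 0.132 and 0.171 in *Eya1*cKO, which covers counting error only. As a check of the labels, *Eya1* had 6612 and 6420 counts in the controls against 377 and 219 in *Eya1*cKO (log2 fold change -3.60, standard error 0.18, adjusted *P* = 1.9e-04 in edgeR). Counts do not separate transcripts of the intact and the deleted allele. Reads lying on no gene made up 12.9% to 13.9% of the recorded reads in the controls and 20.9% to 22.7% in *Eya1*cKO.

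Markers of several cell types differed between the genotypes. Summed over 9 nephron progenitor markers, the level was 1633 to 1636 CPM in the controls and 250 to 268 CPM in *Eya1*cKO, and all 9 fell. These 9 include *Eya1* itself, which the design removed, and *Six2*, *Pax2* and *Gdnf*, which the paper counts among genes positively regulated by Eya1. Their sum is therefore not an independent measure of progenitor content. Summed levels of 6 podocyte markers (504 to 514 against 2347 to 2351 CPM), 6 renal stroma markers (2572 to 2604 against 5410 to 5682 CPM), 5 endothelial markers (456 to 467 against 769 to 836 CPM), 6 adrenal cortex markers (11.4 to 18.6 against 651 to 675 CPM) and 6 sympathoadrenal markers (4.55 to 7.87 against 507 to 536 CPM) were higher in both *Eya1*cKO libraries. Those of 6 ureteric bud markers were lower (231 to 238 against 141 to 143 CPM), and 14 markers of dividing cells went from 4105 to 4161 CPM in the controls to 2761 to 2769 CPM in *Eya1*cKO. The summed levels of 5 macrophage markers (89.4 to 90.8 against 76.2 to 102 CPM) and 4 skeletal muscle markers (7.26 to 11.5 against 6.77 to 8.25 CPM) overlapped between genotypes. Those of 5 Schwann and neural crest markers were 25.9 to 27.5 CPM in the controls and 28.6 to 32.0 CPM in *Eya1*cKO. Of 4 erythroid markers, *Hba-a1* and *Hbb-bs* were at 0 in every library, and the summed level was at most 0.667 CPM. Most of the renal stroma sum came from 2 collagen genes, *Col1a1* (mean 1066 against 2361 CPM) and *Col3a1* (962 against 2416 CPM), and both rose. Of the other stroma markers, *Foxd1* (142% of control) and *Dcn* (457%) rose as well. *Pdgfra* (127%, adjusted *P* = 0.12 in edgeR) and *Meis1* (100%, adjusted *P* = 0.99 in edgeR) did not pass, so the size of that sum does not describe every stroma marker. In such bulk samples, fewer cells of a type and less RNA per cell cannot be told apart.

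All 38 members passed the filter on low counts and were tested. In edgeR's quasi-likelihood test with adjustment over all 19041 genes tested, 10 of the 38 (26.3%) fell in *Eya1*cKO, against 4.41% of all genes tested, and 0 rose, against 5.15% of all genes. At an unadjusted *P* under 0.05, 18 members were lower and 1 was higher, against 14.6% and 14.2% of all genes tested. DESeq2's Wald test, with 6.57% of its genes lower, called 11 members lower and 0 higher, *Phc1* being the addition. Members are mostly well-expressed genes, and among genes of at least 10 CPM over the 4 libraries 7.8% fell, while 10 of the 35 members at that level (28.6%) did. Both *Eya1*cKO libraries lay below both controls for 23 members (60.5%), against 30.1% of all genes tested, and above both for 4 members, against 25.3%. The median log2 fold change was -0.30 over the members and 0.016 over all genes tested, and the members ran from -3.18 (*Phf19*) to 0.76 (*Cbx7*).

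Without control 1, or without control 2, 0 of the 38 members passed in edgeR (smallest adjusted *P* of a member 0.14 and 0.13), but so few genes passed in these fits (23 in each, or 0.109% and 0.108% of all genes) that the 0 says nothing particular to the members. The lone control is assumed there to vary as the *Eya1*cKO pair does. Without *Eya1*cKO 1 there were 18 members lower and 3 higher, where 14.8% of all genes in that fit were lower and 18.7% higher. Without *Eya1*cKO 2 there were 20 lower and 4 higher, where 15.5% of all genes were lower and 19.8% higher. Across these 4 fits the log2 fold changes of the 10 members that fell stayed negative, from -3.30 to -3.07 for *Phf19* and from -0.50 to -0.39 for *Rbbp4*.

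**Figure D1:**
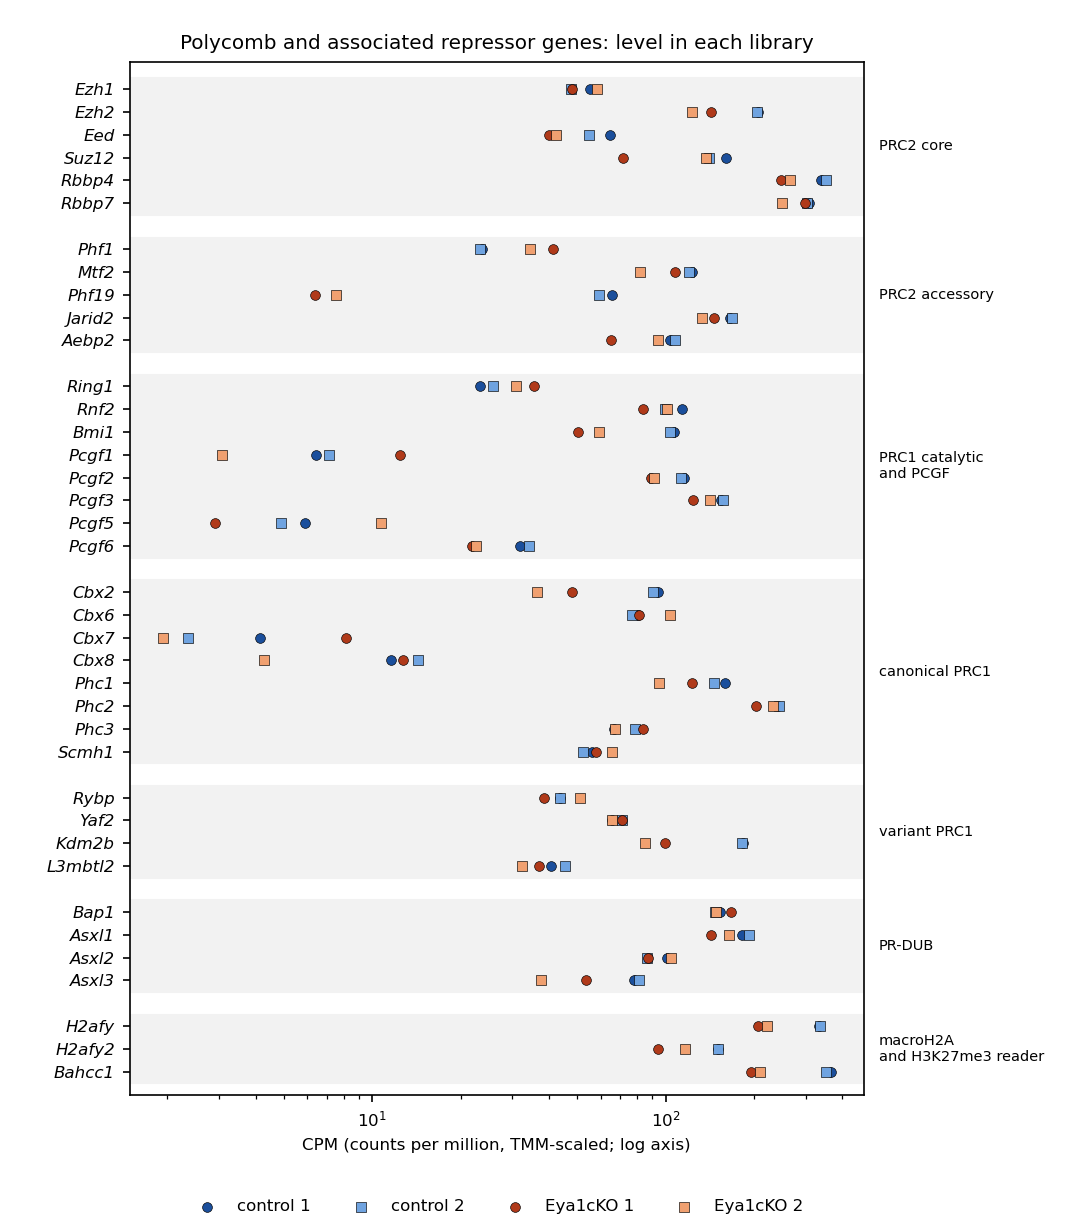
Level of each of the 38 members in the 4 libraries, in CPM on a log axis, ordered by role, with blue for the controls and red or orange for *Eya1*cKO. The controls lie close together for most members, *Phf19* stands far to the left in both *Eya1*cKO libraries, and *Pcgf1*, *Pcgf5*, *Cbx7* and *Cbx8* have *Eya1*cKO libraries that lie far apart.

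**Figure D2:**
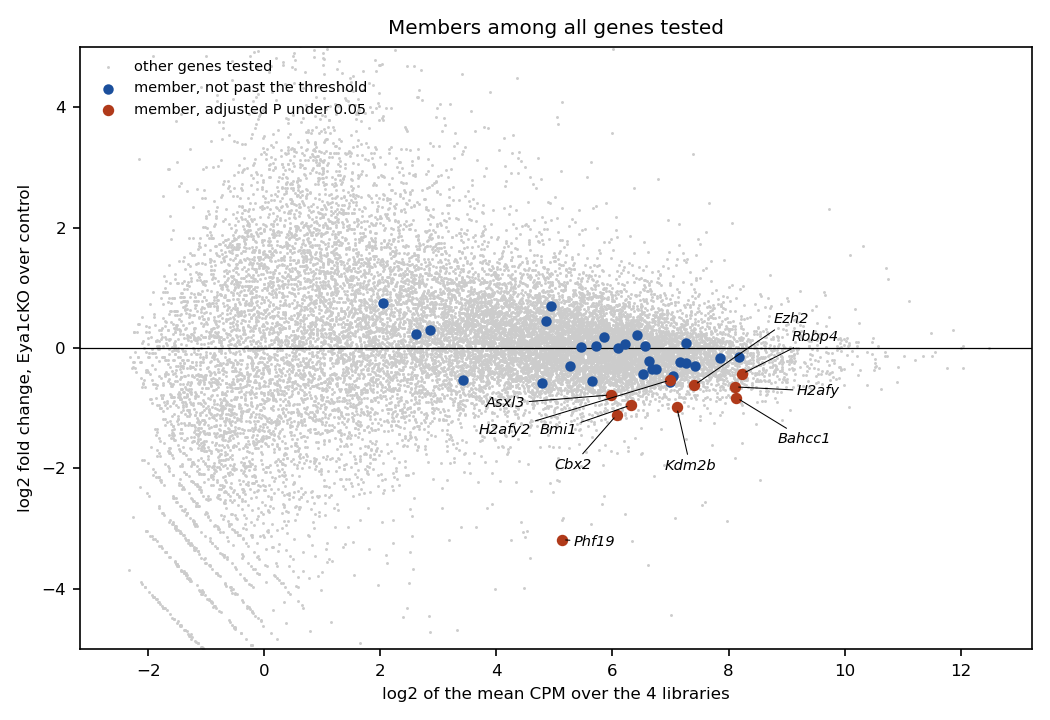
Log2 fold change of *Eya1*cKO over control against log2 of the mean CPM for all genes tested (grey) and the 38 members (blue, or red where the adjusted *P* in edgeR was under 0.05), with 519 genes beyond the limits of 5 on the vertical axis not drawn. The 10 red points lie below the line at 0, and *Phf19* lies lowest of the members.

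In the PRC2 core, 2 of 6 genes fell, *Ezh2* and *Rbbp4*, and the median log2 fold change of the group was -0.49. *Ezh2*, on chromosome 6 from 47530139 to 47595341 of GRCm38 on the minus strand, encodes the methyltransferase that predominates in dividing progenitors. It had 7224, 7689, 3247 and 2167 counts, so both *Eya1*cKO libraries were lower than either control. This came to 206 ± 1.07 CPM in the controls and 133 ± 14.2 CPM in *Eya1*cKO, or 64.8% of the control level (log2 fold change -0.62, standard error 0.11, adjusted *P* = 0.016 in edgeR). *Ezh1*, the methyltransferase that is usual in resting cells, had 1937, 1790, 1084 and 1029 counts, or 51.6 ± 5.41 and 53.2 ± 7.55 CPM, with libraries that overlapped between genotypes (log2 fold change 0.03, standard error 0.18, adjusted *P* = 0.92 in edgeR).

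The chaperone that holds histones in the complex, *Rbbp4*, on chromosome 4 from 129307100 to 129335370, had 11809, 13231, 5597 and 4678 counts. Its level went from 345 ± 10.7 to 257 ± 13.4 CPM (log2 fold change -0.43, standard error 0.08, adjusted *P* = 0.022 in edgeR). Because 18% of its exon bases are shared with 2 genes on the opposite strand and the strand setting of the counting is not given in the sources used here, reads of those genes could be among them. *Rbbp7*, its paralogue and per kilobase of exon the most abundant PRC2 core gene, gave 10757, 11375, 6767 and 4384 counts, or 306 ± 2.99 and 274 ± 34.9 CPM (log2 fold change -0.15, standard error 0.10, adjusted *P* = 0.37 in edgeR). The other core subunits also had both *Eya1*cKO libraries below both controls and did not pass. *Eed*, which reads H3K27me3 and stimulates the enzyme, was at 59.7 ± 6.87 and 41.1 ± 1.59 CPM (adjusted *P* = 0.11 in edgeR). *Suz12*, the scaffold, was at 161 and 140 CPM in the controls and at 71.4 and 137 CPM in *Eya1*cKO (adjusted *P* = 0.19 in edgeR), so that *Eya1*cKO 2 lay next to the controls.

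Within a library, the ratio of *Ezh2* to *Ezh1* per kilobase was 4.16 and 4.79 in the controls and 3.34 and 2.35 in *Eya1*cKO. Neither such a ratio nor the share of a family depends on how the libraries are scaled to each other. With 2 libraries against 2, an exact two-sided permutation test of a ratio cannot go below *P* = 0.3333, and that is what it gave for each of the pairs whose genotypes did not overlap. *Ezh2* made up 80.6% and 82.7% of the EZH sum per kilobase in the controls and 76.9% and 70.1% in *Eya1*cKO, and the sum itself was at 71.8% of its control level. The ratio of *Rbbp4* to *Rbbp7* was 0.365 and 0.387 in the controls and 0.275 and 0.355 in *Eya1*cKO.

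The change of *Phf19*, a PRC2 accessory gene, was the largest of the 38. It encodes a Polycomb-like protein, one of 3 related proteins that bind CpG-rich DNA and bring PRC2 to it. *Phf19* lies on chromosome 2 from 34893757 to 34914026 on the minus strand, and it had 2304, 2231, 145 and 132 counts. In CPM this was 62.7 ± 4.51 against 6.95 ± 0.782, a 9.02-fold lower level that left 11.1% of the control (log2 fold change -3.18, standard error 0.26, adjusted *P* = 0.0014 in edgeR). No base of its exons is shared with a gene on the opposite strand.

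The other Polycomb-like genes did not pass, and their difference from *Phf19* was not tested. *Mtf2*, the most abundant accessory gene per kilobase, had 4289, 4521, 2439 and 1436 counts, or 122 ± 1.46 and 94.7 ± 18.4 CPM (log2 fold change -0.34, standard error 0.14, adjusted *P* = 0.17 in edgeR), with both *Eya1*cKO libraries below both controls and an unadjusted *P* of 0.049. *Phf1* had 825, 873, 933 and 606 counts, or 23.4 ± 0.218 and 37.8 ± 4.75 CPM, with both *Eya1*cKO libraries above both controls (log2 fold change 0.71, standard error 0.21, adjusted *P* = 0.09 in edgeR). It was the single member above the controls at an unadjusted *P* under 0.05, and 43.8% of its exon bases are shared with 2 genes on the opposite strand, so its counts are uncertain.

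Per kilobase, *Phf19* made up 31.6% and 29.8% of the sum of the 3 Polycomb-like genes in the controls and 3.97% and 5.80% in *Eya1*cKO. *Phf1* went from 16.4% and 16.9% to 36.9% and 38.5% of that sum, while *Mtf2* held the largest share in every library, at 52.0% and 53.4% in the controls and 59.1% and 55.8% in *Eya1*cKO. The ratio of *Phf19* to *Phf1* was 1.93 and 1.77 in the controls and 0.108 and 0.151 in *Eya1*cKO, and that of *Mtf2* to *Phf1* was 3.18 and 3.17 against 1.60 and 1.45. The sum of the 3 genes was at 71.2% of its control level. *Jarid2* and *Aebp2*, which mark the other form of PRC2 and help it bind ubiquitinated H2A, were at 167 ± 2.19 and 105 ± 3.08 CPM in the controls and at 140 ± 8.88 and 79.5 ± 20.6 CPM in *Eya1*cKO. Neither passed (adjusted *P* = 0.15 and 0.16 in edgeR), and their ratio overlapped between genotypes.

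Promoter windows from RefSeq (build GRCm38.p6, from 250 bases before to 50 bases after a start) were matched by symbol for 33 of the 38 members and not for *Pcgf1*, *Cbx2*, *Rybp*, *Yaf2* and *Asxl3*. The windows of the EZH pair and of *Phf19* are shown as those of the alternative PRC2 methyltransferases, of which one fell and the other did not pass, and of the member with the largest change. Capitals mark the letters TTTGGCGC, TTTCGCGC or TTTCCCGC, a short form of the site of E2F factors, which drive genes of DNA replication, searched on both strands.
Phf19: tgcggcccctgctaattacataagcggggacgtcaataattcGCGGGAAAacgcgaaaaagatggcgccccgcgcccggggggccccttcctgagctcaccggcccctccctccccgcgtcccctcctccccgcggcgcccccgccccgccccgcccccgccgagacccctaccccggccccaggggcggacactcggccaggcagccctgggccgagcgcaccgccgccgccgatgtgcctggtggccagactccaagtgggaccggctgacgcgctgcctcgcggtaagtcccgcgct
Ezh2: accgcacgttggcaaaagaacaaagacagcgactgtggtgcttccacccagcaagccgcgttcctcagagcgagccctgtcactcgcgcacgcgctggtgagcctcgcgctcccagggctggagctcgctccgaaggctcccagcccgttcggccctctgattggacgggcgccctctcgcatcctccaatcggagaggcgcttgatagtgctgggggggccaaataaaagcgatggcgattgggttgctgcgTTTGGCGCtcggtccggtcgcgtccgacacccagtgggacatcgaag
Ezh1: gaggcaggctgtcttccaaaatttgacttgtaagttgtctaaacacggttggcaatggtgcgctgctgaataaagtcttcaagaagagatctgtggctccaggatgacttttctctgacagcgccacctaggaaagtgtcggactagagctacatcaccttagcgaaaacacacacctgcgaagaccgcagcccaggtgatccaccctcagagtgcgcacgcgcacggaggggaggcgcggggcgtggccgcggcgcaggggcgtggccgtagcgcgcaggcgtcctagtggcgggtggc
The *Phf19* window is chr2:34913927-34914226, that of *Ezh2* is chr6:47594981-47595280 and that of *Ezh1* is chr11:101226414-101226713, all on the minus strand and printed in the direction of the gene. The *Phf19* window holds TTTCCCGC on the strand opposite to the one printed, from 208 bases before the start, and the *Ezh2* window holds TTTGGCGC from 3 bases past the start. *Suz12*, with TTTCCCGC, was the only other member with such letters, while 2.12% of all 27025 genes in the table have a window with them. A match of letters is a description and not a bound site. Of the 33 members, 31 had a CpG-rich window (at least 50% G and C and a CpG ratio of at least 0.6), against 36% of all genes. Neither the 2.12% nor the 36% was restricted to expressed genes, while all 38 members passed the low-count filter, so neither is read further. The *Phf19* window was at 74.3% G and C, that of *Ezh2* at 64.3% and that of *Ezh1* at 59.3%.

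Among the PRC1 catalytic and PCGF genes, *Bmi1* alone of 8 fell, and the group's median log2 fold change was -0.22. *Bmi1*, also named PCGF4, partners the RING1 ubiquitin ligases in canonical PRC1 and is known for silencing *Cdkn2a* in self-renewing cells. It lies on chromosome 2 from 18677018 to 18686629 on the plus strand. Its counts of 3726, 3872, 1141 and 1040 came to 105 ± 2.32 CPM in the controls and 54.8 ± 6.21 CPM in *Eya1*cKO, which left 52.2% (log2 fold change -0.95, standard error 0.14, adjusted *P* = 0.0099 in edgeR).

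Its window is shown because it was one of 9 member windows with the E-box CACGTG, the letters that Myc and Max proteins bind, in capitals, which read the same on both strands.
Bmi1: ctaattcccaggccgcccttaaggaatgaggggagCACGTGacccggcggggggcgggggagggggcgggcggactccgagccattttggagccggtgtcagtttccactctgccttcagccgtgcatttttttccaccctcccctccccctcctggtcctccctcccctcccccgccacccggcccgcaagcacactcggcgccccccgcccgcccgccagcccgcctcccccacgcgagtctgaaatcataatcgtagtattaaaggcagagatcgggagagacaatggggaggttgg
This window is chr2:18676768-18677067 of GRCm38.p6 on the plus strand. The other members with an E-box were *Rbbp4*, *Pcgf2*, *Cbx6*, *Cbx8*, *Phc2*, *Phc3*, *Bap1* and *Asxl2*, and 8.09% of all genes in the table had one. That share, too, was not restricted to expressed genes and is not read further. Of the 10 members that fell, 8 had a window, and 2 of these, *Bmi1* and *Rbbp4*, held an E-box.

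*Pcgf2*, the close relative of *Bmi1* and per kilobase the most abundant PCGF gene, had 4036, 4226, 2013 and 1604 counts, or 114 ± 1.91 and 90.03 ± 1.67 CPM (log2 fold change -0.34, standard error 0.11, adjusted *P* = 0.11 in edgeR). The ratio of *Bmi1* to *Pcgf2* per kilobase was 0.819 and 0.813 in the controls and 0.503 and 0.575 in *Eya1*cKO, with the 2 controls close to each other and both *Eya1*cKO libraries below them. In shares of the PCGF sum, *Bmi1* was at 31.0% and 30.3% in the controls and at 20.1% and 23.7% in *Eya1*cKO, and *Pcgf2* at 37.9% and 37.2% against 40.0% and 41.2%. The sum of the 6 PCGF genes was at 73.0% of its control level.

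*Rnf2*, the main E3 ligase for H2A, was at 106 ± 9.94 and 92.5 ± 12.7 CPM, and its paralogue *Ring1* at 24.5 ± 1.66 and 33.3 ± 3.24 CPM, and neither passed (adjusted *P* = 0.38 and 0.23 in edgeR). The ratio of *Rnf2* to *Ring1* per kilobase was 3.81 and 3.03 in the controls and 1.85 and 2.57 in *Eya1*cKO, while the sum of both was at 98.0% of its control level. Of the PCGF genes that define variant PRC1, *Pcgf3* was at 155 ± 1.93 and 133 ± 12.4 CPM and *Pcgf6* at 33.1 ± 1.61 and 22.2 ± 0.475 CPM, with the *Eya1*cKO libraries below the controls (adjusted *P* = 0.21 and 0.15 in edgeR). *Pcgf1*, with 224, 268, 282 and 54 counts, and *Pcgf5*, with 207, 183, 66 and 188, were scarce, and their *Eya1*cKO libraries lay on either side of the controls. The ratio of *Pcgf3* to *Pcgf5* therefore overlapped, at 34.4 and 42.5 against 56.4 and 17.5.

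In canonical PRC1, *Cbx2* was the 1 gene of 8 that fell, and the group's median log2 fold change of -0.046 lay near that of all genes. *Cbx2*, on chromosome 11 from 119022962 to 119031270, encodes a chromobox protein that binds H3K27me3 and compacts nucleosomes. Counts of 3304, 3398, 1088 and 643 came to 92.6 ± 2.73 CPM in the controls and 42.3 ± 8.10 CPM in *Eya1*cKO (log2 fold change -1.11, standard error 0.17, adjusted *P* = 0.01 in edgeR), a 2.19-fold lower level. *Cbx6* stood at 78.5 ± 2.70 and 92.4 ± 16 CPM (adjusted *P* = 0.37 in edgeR). *Cbx2* held 66.1% and 65.0% of the sum of the 4 chromobox genes in the controls and 47.7% and 43.3% in *Eya1*cKO, and *Cbx6* held 22.6% and 22.03% against 32.3% and 49.3%, all per kilobase of exon, a scale on which *Cbx6* was above *Cbx2* in *Eya1*cKO 2 only. In CPM, *Cbx6* was above *Cbx2* in both *Eya1*cKO libraries. A gene on the same strand shares 5.31% of the exon bases of *Cbx6*. The chromobox sum was at 65.6% of its control level, the lowest of the 10 families summed.

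*Cbx7* and *Cbx8*, other chromobox readers of H3K27me3, were scarce and their *Eya1*cKO libraries disagreed. *Cbx7* had 145, 88, 185 and 34 counts and *Cbx8* had 405, 537, 289 and 75 counts. The ratio of *Cbx2* to *Cbx7* per kilobase was 34.7 and 58.8 in the controls and 8.96 and 28.8 in *Eya1*cKO, and it rests on these low *Cbx7* counts. That of *Cbx8* to *Cbx6* overlapped between genotypes.

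The Polyhomeotic genes, whose SAM domains let PRC1 form polymers, showed no call in edgeR. *Phc2*, the most abundant of canonical PRC1 per kilobase, had 8454, 9115, 4605 and 4085 counts, or 242 ± 0.955 and 218 ± 20.5 CPM (log2 fold change -0.16, standard error 0.09, adjusted *P* = 0.31 in edgeR). *Phc1*, the form linked to pluripotent cells, was at 153 ± 9.79 and 109 ± 19.9 CPM, and its adjusted *P* was 0.085 in edgeR and 0.043 in DESeq2. *Phc3* and the SAM-domain partner *Scmh1* were at 72.8 ± 8.30 and 54.1 ± 2.71 CPM in the controls and at 75.5 ± 12 and 61.9 ± 5.50 CPM in *Eya1*cKO. The ratio of *Phc1* to *Phc2* was 0.883 and 0.802 against 0.809 and 0.546, with overlap.

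Of the 4 variant PRC1 genes, *Kdm2b* fell and the other 3 did not pass. *Kdm2b*, on chromosome 5 from 122870665 to 122989823, encodes a protein that binds unmethylated CpG DNA and brings variant PRC1 to CpG islands. It gave 6437 and 6853 counts in the controls and 2262 and 1491 in *Eya1*cKO, or 183 ± 0.919 and 92.3 ± 10.6 CPM, a 1.99-fold lower level (log2 fold change -0.98, standard error 0.12, adjusted *P* = 0.0046 in edgeR). Opposite-strand genes, 2 in number, share 7.6% of its exon bases, and a gene on the same strand shares 1.14%. *Yaf2*, most abundant of the group per kilobase, had 2290, 2671, 1609 and 1156 counts, or 68.4 ± 4.07 and 68.4 ± 3.73 CPM (log2 fold change 0.01, standard error 0.14, adjusted *P* = 0.98 in edgeR), and *Rybp*, its paralogue and like it a stimulator of the ligase, stood at 43.6 ± 0.154 and 44.7 ± 8.91 CPM. *L3mbtl2*, an MBT-domain partner of *Pcgf6*, was at 42.9 ± 3.35 and 34.6 ± 3.25 CPM (adjusted *P* = 0.35 in edgeR), with 17.2% of its exon bases shared with an opposite-strand gene.

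*Asxl3* was the 1 of 4 PR-DUB genes that fell. It is a cofactor of the H2A deubiquitinase, and its counts were 2727, 3043, 1211 and 662. The level was 79.6 ± 2.25 CPM in the controls and 45.6 ± 11.2 CPM in *Eya1*cKO (log2 fold change -0.78, standard error 0.18, adjusted *P* = 0.044 in edgeR). This call did not hold under 5 of 10 alternative settings, with an adjusted *P* of up to 0.12. *Bap1*, the deubiquitinase itself, had 5357, 5528, 3785 and 2607 counts, or 150 ± 4.07 and 158 ± 13.3 CPM (log2 fold change 0.08, standard error 0.10, adjusted *P* = 0.68 in edgeR), and its genotypes overlapped. *Asxl1* and *Asxl2*, cofactors related to *Asxl3*, were at 188 ± 7.19 and 93.6 ± 10.2 CPM in the controls and at 154 ± 14.8 and 95.8 ± 12.5 CPM in *Eya1*cKO, and their ratio per kilobase was 3.88 and 4.78 against 3.52 and 3.35. *Asxl3* held 14.0% and 14.3% of the ASXL sum in the controls and 12.2% and 7.82% in *Eya1*cKO.

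All 3 genes of the last group fell, with a median log2 fold change of -0.64. The study had already reported *H2afy* and *Bahcc1* as decreased, so for them this is not an independent result. *H2afy* encodes macroH2A, a large histone variant of silent chromatin and of the inactive X chromosome, and lies on chromosome 13 from 56073619 to 56136361. It had 11672 and 12641 counts in the controls and 4690 and 3912 in *Eya1*cKO, or 335 ± 2.38 and 215 ± 10.9 CPM (log2 fold change -0.64, standard error 0.08, adjusted *P* = 0.006 in edgeR). Gene counts do not separate its spliced isoforms, and 7.36% of its exon bases are shared with an opposite-strand gene. *H2afy2*, on chromosome 10 from 61738665 to 61784147, encodes the second macroH2A and was the most abundant of the group per kilobase. Its counts of 5260, 5666, 2135 and 2040 came to 151 ± 0.495 and 105 ± 15.4 CPM (log2 fold change -0.53, standard error 0.13, adjusted *P* = 0.045 in edgeR). This call was lost under 5 of 10 alternative settings, with an adjusted *P* of up to 0.12, and 10.7% of its exon bases are shared with an opposite-strand gene.

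*Bahcc1*, on chromosome 11 from 120232947 to 120292296, encodes a BAH-domain protein that reads H3K27me3 and helps silence the marked genes. It had 12773, 13235, 4445 and 3691 counts, the highest of the 38 members in both controls. The level was 359 ± 8.68 CPM in the controls and 203 ± 9.69 CPM in *Eya1*cKO (log2 fold change -0.82, standard error 0.08, adjusted *P* = 0.0026 in edgeR), which left 56.5%. The ratio of *H2afy* to *H2afy2* per kilobase was 0.709 and 0.713 in the controls and 0.702 and 0.613 in *Eya1*cKO, and the sum of both was at 67.4% of its control level.

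**Figure D3:**
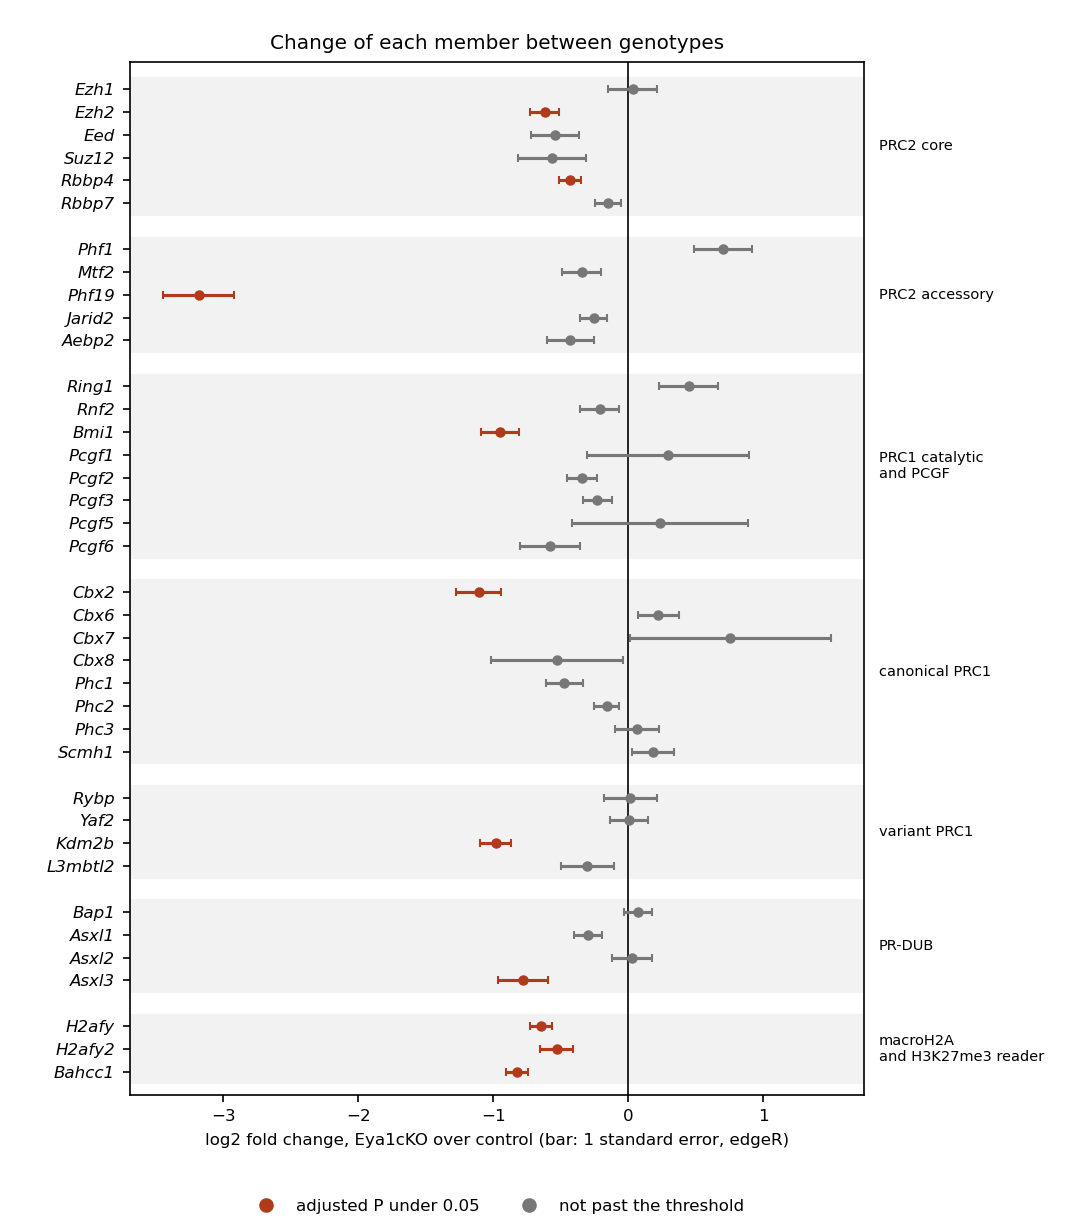
Log2 fold change of *Eya1*cKO over control for each member, with bars of 1 standard error from edgeR, red where the adjusted *P* was under 0.05. Each role has at least 1 red member, all red points lie left of 0, and the widest bars belong to the scarce genes *Pcgf1*, *Pcgf5*, *Cbx7* and *Cbx8*.

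**Figure D4:**
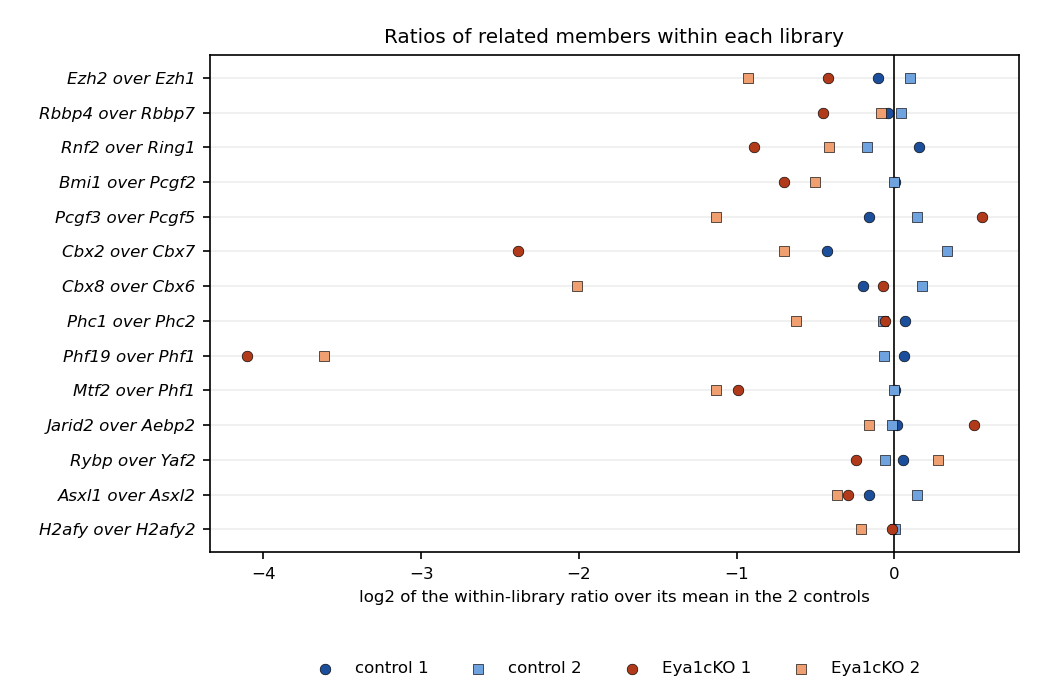
Ratio of 2 related members within each library, per kilobase of exon, as log2 relative to the mean of the 2 controls, for the 14 pairs. The ratio of *Phf19* to *Phf1* lies furthest from the controls, and 9 of the 14 pairs have both *Eya1*cKO libraries below both controls.

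Within libraries, 9 of the 14 pairs of related members had both *Eya1*cKO libraries below both controls, 5 overlapped and 0 lay above. Which gene of a pair stands first was chosen, so the shared direction of the ratios is no finding. In sums per kilobase, the remaining families stood at 80.4% (*Jarid2* and *Aebp2*), 81.7% (ASXL), 82.7% (Polyhomeotic) and 85.5% (*Rbbp4* and *Rbbp7*) of their control level.

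Since markers of dividing cells were also lower in *Eya1*cKO, the 10 members that fell were set against them in the same library, a comparison chosen after the values were seen. Of the 14 dividing-cell markers, 11 fell and the log2 fold change was below 0 for all 14, with a median of -0.66, and without control 1 or control 2 the count of calls in edgeR was 0, where 23 genes in all passed in each fit. Taken as a percentage of the summed dividing-cell markers, *Phf19* was at 1.58 and 1.45 in the controls and at 0.231 and 0.272 in *Eya1*cKO, or 0.166 times the control value. *Cbx2* (0.683 times), *Kdm2b* (0.752), *Bmi1* (0.780) and *Bahcc1* (0.845) also had both *Eya1*cKO libraries below both controls on this measure. *Ezh2* was at 4.964 and 4.995 percent in the controls and at 5.18 and 4.46 percent in *Eya1*cKO, so that its genotypes overlapped. Those of *H2afy* (0.957 times), *H2afy2* (1.04) and *Asxl3* (0.855) overlapped as well, and *Rbbp4* lay above its controls (1.11). Of all 38 members, 5 lay below, 20 above and 13 overlapped, and of all genes tested 11.1% lay below and 53.3% above on this measure. Set against the summed nephron progenitor markers instead, *Phf19* alone lay below, at 4.03 and 3.64 percent of that sum in the controls and 2.39 and 3.01 percent in *Eya1*cKO, and the other 37 members lay above, as 82.5% of all genes tested did, while 2.96% lay below. Where *Phf19* lies here depends on the markers in the sum, *Eya1* itself among them. Singly, they stood at 4.31% (*Six2*) to 26.4% (*Meox1*) of control, and *Phf19* at 11.1% was above *Six2* and *Eya1* (8.08%). The part that either marker group had in the changes was not tested.

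**Figure D5:**
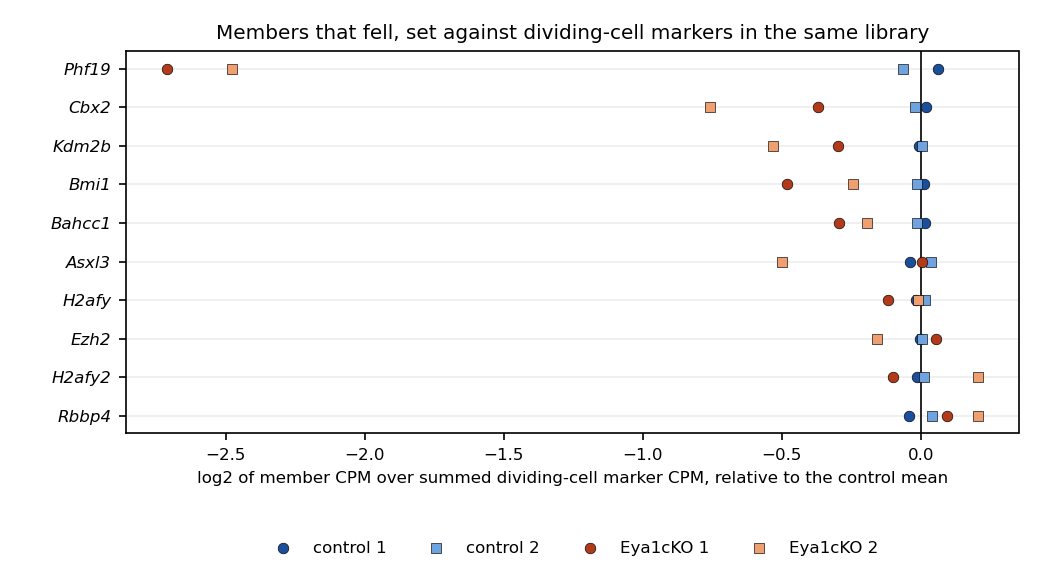
Level of the 10 members that fell as a fraction of the summed CPM of 14 dividing-cell markers in the same library, as log2 relative to the mean of the 2 controls. *Phf19* lies far left of the controls, *Cbx2*, *Kdm2b*, *Bmi1* and *Bahcc1* lie left of them in both *Eya1*cKO libraries, and the other 5 overlap the controls or lie right of them.

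Around the members, 45 further genes of the Polycomb pathway and its counterparts were examined, of which 5 fell (11.1%) and 0 rose, with a median log2 fold change of -0.06. Among all genes tested 4.41% fell, and 7.8% of those of at least 10 CPM. At an unadjusted *P* under 0.05, 12 were lower and 2 higher, against 14.6% and 14.2% of all genes, and DESeq2 called 8 lower and 1 higher, against 6.57% and 9.18%. *Epop*, an elongin-binding PRC2 partner, changed most, with 1970 and 1818 counts in the controls and 399 and 197 in *Eya1*cKO (log2 fold change -1.82, standard error 0.26, adjusted *P* = 0.0091 in edgeR). The other 4 were partners of variant PRC1. *Hdac2*, a histone deacetylase, had a log2 fold change of -0.52 (adjusted *P* = 0.016 in edgeR), *Tfdp1*, the dimer partner of E2F proteins, of -0.53 (adjusted *P* = 0.021), *Wdr5*, a scaffold shared with the trithorax complexes, of -0.62 (adjusted *P* = 0.025) and *Usp7*, a deubiquitinase, of -0.45 (adjusted *P* = 0.028). *Usp7* lost its call without the low-count filter and with the legacy method. Without control 1 or control 2 none of these 5 passed (0 calls), where 0.109% and 0.108% of all genes did, and without *Eya1*cKO 1 or *Eya1*cKO 2 there were 15 and 16 calls on the lower side, in fits where 14.8% and 15.5% of all genes were lower.

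The enzymes that oppose Polycomb showed no call in edgeR or DESeq2. The 6 histone methyltransferases listed (*Kmt2a*, *Kmt2b*, *Kmt2c*, *Kmt2d*, *Ash1l* and *Nsd1*) had log2 fold changes from -0.06 to 0.05. Their libraries overlapped between genotypes for all 6, and 0 of them had an unadjusted *P* under 0.05. The H3K27 demethylases *Kdm6a* and *Kdm6b* were at -0.11 and -0.15, and the DNA-binding recruiters *Rest* and *Yy1* at -0.29 and -0.39, neither of which passed in edgeR (adjusted *P* = 0.077 and 0.055), though both did in DESeq2. Of the 7 PR-DUB partners, 0 passed in edgeR, 3 were lower and 1 was higher at an unadjusted *P* under 0.05, and DESeq2 called *Hcfc1* lower and *Ogt*, which attaches GlcNAc to proteins, higher. The 5 MBT and SAM proteins and 2 further H2A deubiquitinases had 0 calls in either test and 0 genes at an unadjusted *P* under 0.05.

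Of 25 loci that textbooks list as held silent by Polycomb, 12 passed the low-count filter, and 3 of these rose and 0 fell in edgeR, where 5.15% of all genes rose. A locus nearly silent in the controls can pass that filter through *Eya1*cKO alone, as the 3 that rose had at most 27 counts in a control, so the split of calls is not read further. With at least 10 counts required in every library, *Hand1* and *Hand2* were not tested and the calls were 1 higher (*Tbx5*) and 1 lower (*Sim1*), against 7.84% and 7.64% of all genes in that fit. At an unadjusted *P* under 0.05, 6 were higher and 2 lower, against 14.2% and 14.6% of all genes, and DESeq2 called 5 higher and 1 lower, against 9.18% and 6.57%. Without *Eya1*cKO 1 or *Eya1*cKO 2 the higher calls were 6 and 8, in fits where 18.7% and 19.8% of all genes were higher. *Cdkn2a*, the classic target of *Bmi1*, had 0, 7, 0 and 0 counts, and *Cdkn2b* beside it had 0, 1, 0 and 6, too few for either to be tested, with genotypes that overlapped. The 0 counts of *Cdkn2a* in *Eya1*cKO allow a level of up to 0.132 and 0.171 CPM. The 3 that rose encode transcription factors of other lineages. *Hand2* had 20 and 2 counts in the controls and 610 and 618 in *Eya1*cKO (log2 fold change 6.64), *Hand1* 20 and 7 against 546 and 196 (5.61) and *Tbx5* 27 and 11 against 91 and 201 (3.78, adjusted *P* = 0.048 in edgeR). With 1 library left out, the log2 fold change ran from 5.72 to 9.02 for *Hand2*, from 4.88 to 6.56 for *Hand1* and from 2.91 to 4.59 for *Tbx5*. An opposite-strand gene shares 19.6% of the exon bases of *Hand2*. None of the 3 passed without control 1 or control 2 (0 calls, with 23 genes in all passing in each fit), and *Tbx5* lost its call under 4 of 10 alternative settings. *Hand2* is also one of the 6 sympathoadrenal markers, all of which rose, and the part of that tissue in these 3 changes was not tested. The other 9 loci tested did not pass. *Sim1*, the gene DESeq2 called lower, had 1735 and 1632 counts in the controls and 613 and 267 in *Eya1*cKO (adjusted *P* = 0.051 in edgeR). *Sox1* had 16 and 26 against 0 and 0 (adjusted *P* = 0.11 in edgeR), and *Gata6* had 1129, 944, 1020 and 758 counts. *Neurog2*, with 24, 8, 0 and 0 counts, and *T*, with 9, 33, 0 and 1, were too scarce to be tested. Of the 25 loci, 4 had both *Eya1*cKO libraries below both controls and 6 above, against 30.1% and 25.3% of all genes tested.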

How the data were processed

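The authors mapped single-end reads of strand-specific, random-primed SMARTer libraries to mm10 with HISAT2, counted them on Ensembl genes with HTSeq-count and deposited raw counts per gene, without normalization. Whether the counting used strand is not given in the sources used here. Rows that name no gene were left out of library sizes (12.9% to 22.7% of recorded reads lay on no gene). In R 4.3.3, edgeR 4.0.16 kept genes by filterByExpr (minimum count 10), scaled libraries by TMM and tested genotype in all 4 libraries with glmQLFit and glmQLFTest, with Benjamini-Hochberg adjustment over all genes at 0.05. The standard error of a log2 fold change was its size divided by the root of the F statistic. DESeq2 1.42.0 was an alternative, as were other scalings, filters, thinning, leaving out each library and a replicate block. The test was first tested on simulated data. Exon lengths and positions are from GENCODE M21 on GRCm38, the build of mm10, and promoter windows from RefSeq.

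The members and gene lists were chosen with earlier results of these data known. Values are printed for members past the threshold, those the study names, the most abundant per kilobase of each role and the fixed paralogue pairs, and, of the wider list, for up to 6 genes past it in each direction. Other genes were named after their values were seen. Results of 1 listed gene are not reported here.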

Additional observations from a re-analysis of the deposited data

Results flagged for a closer look

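The share of recorded reads that lay on no gene, a row outside the gene table, was 22.7% in *Eya1*cKO 1 and 20.9% in *Eya1*cKO 2, against 13.9% and 12.9% in the control libraries. Reads that were not aligned made up 12.9% and 12.7% in *Eya1*cKO and 6.32% and 6.69% in the controls. Both were above the controls in both *Eya1*cKO libraries, and their part in the changes of the Polycomb genes was not tested.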

How the results depend on the processing

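Of the 10 members that fell, all kept their direction in the 10 alternatives run on all 4 libraries, and *Phf19*, *Cbx2*, *Kdm2b*, *H2afy* and *Bahcc1* passed in every one of them. *Ezh2*, *Rbbp4* and *Bmi1* lost the call with the replicate block only (adjusted *P* = 0.063, 0.066 and 0.056 in edgeR). *Asxl3* and *H2afy2* lost it with library totals alone, no low-count filter, the legacy method, the block and thinned control counts. The number of members lower was 5 with the block and otherwise 8 to 11. Over all genes, 1820 passed, against 1055 without the low-count filter, 3102 in DESeq2, 1096 with the legacy method, 621 with the block and 23 to 7925 with 1 library left out; the median log2 fold change of all genes moved from 0.016 to -0.21 without the filter and to -0.18 in DESeq2, both of which test more genes of low count, and to -0.16 and -0.11 without *Eya1*cKO 1 and *Eya1*cKO 2. Replicate numbers are shared by name only: deviations of same-numbered libraries from their group means had a correlation of 0.0062 across genes.

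With 1 library left out, members lower numbered 0 to 20 and members higher 0 to 4. Of the wider list, 5 were lower, 8 with at least 10 counts in every library, 8 in DESeq2, 2 with the block (*Tfdp1*, *Wdr5* and *Usp7* lost theirs) and 0 to 16 with 1 library left out. On the higher side there were 0, with 1 under library totals alone, 1 with at least 10 counts in every library and 1 in DESeq2 (*Ogt* in each), and 0 to 6 with 1 library left out. A fit that leaves out a control sets the spread by the *Eya1*cKO pair, which differed more than the control pair did (chi-square per degree of freedom 49.7 against 9.68). The cause of these shifts was not tested.

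Signs turned for some members that had not passed. *Yaf2* (0.01) went to -0.00037 with upper-quartile factors, -0.01105 without the filter and -0.00688 with at least 10 counts in every library, and *Rybp* (0.02) to -0.01146 with thinned counts. With 1 library left out, log2 fold changes ran from -0.12 to 0.18 for *Ezh1*, -1.15 to 0.86 for *Pcgf1*, -0.90 to 0.98 for *Pcgf5*, -0.74 to 1.33 for *Cbx7*, -0.13 to 0.19 for *Phc3*, -0.20 to 0.21 for *Rybp*, -0.074 to 0.053 for *Yaf2*, -0.029 to 0.14 for *Bap1* and -0.12 to 0.15 for *Asxl2*. For all 14 pairs, the value of the ratio in *Eya1*cKO over that in the controls was the same from raw counts as per kilobase, since the lengths cancel there. *Cdkn2a* and *Cdkn2b*, with at most 7 counts in a library, had too few for the test, and 3 counts came to 0.08 to 0.171 CPM.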
